A study of Mus musculus with 4 samples.

Results

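The inner root sheath keratins and trichohyalin were examined in the skin of bleomycin (BLM)-treated mice with and without gasdermin D (GSDMD). The members were chosen by name: Krt25, Krt26, Krt27, Krt28, Krt71, Krt72, Krt73, Krt74 and Tchh, which are 9 of the 24441 rows of the deposited gene table, and all 9 were found there. The table holds 4 skin libraries, 2 from wild type (WT) mice and 2 from GSDMD-/- (KO) mice. All were described as female C57BL/6 mice and given by the labels as postnatal week 8. BLM was injected subcutaneously every other day for 28 days to produce scleroderma-like fibrosis. The KO mice came from fertilized eggs injected with Cas9 mRNA and a guide RNA, so the deletion is not limited to a cell type, and both groups received BLM. No saline-treated skin was analysed here, and the labels number the libraries without naming animals, so p-values measure the spread between these libraries.

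The inner root sheath is a rigid epithelial sleeve that surrounds and moulds the growing hair shaft and breaks down higher up in the follicle. It forms in the follicle bulb during anagen, the growth phase of the hair cycle, and consists of the Henle layer, the Huxley layer and the sheath cuticle. Its keratins are assembled from type I partners (Krt25 to Krt28) and type II partners (Krt71 to Krt74), each filament needing both types. Trichohyalin, the product of Tchh, fills the sheath cells as granules, is citrullinated by peptidylarginine deiminases and is cross-linked to the keratin filaments by transglutaminases.

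Values are FPKM, sequenced fragments scaled to transcript length and to library size, so that levels of different genes can be compared per length. Where a pair of values is given for a genotype, replicate 1 comes first. Gsdmd itself stood at 14.0 and 18.2 FPKM in WT skin against 3.53 and 2.26 FPKM in KO skin, with no overlap between the genotypes. In single-transcript genes, 69.5% to 74.9% of low values lay within 0.15 of a step from a whole number of fragments, and from these steps about 12800000 to 17400000 counted fragments per library were estimated. The epidermal keratins Krt14 and Krt5 and the skeletal muscle actin Acta1 were among the abundant messages of every library. KO replicate 2 stood apart: its 6 fibroblast markers summed to 24.9 FPKM against 180.1 to 422.0 FPKM in the other libraries, and its 4 endothelial markers to 6.19 against 50.3 to 71.8 FPKM. It was also the only library with the Y-linked genes Ddx3y, Kdm5d, Uty and Eif2s3y above 0 (summed 1.78 FPKM), although the mice are described as female. The genotype comparison is therefore given with and without this library.

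The type I members lie side by side on chromosome 11 of mouse genome build mm9, within 59060 bases on the minus strand and with 8 exons each. Krt25 lies at 99177158 to 99184255, Krt26 at 99189798 to 99199279, Krt27 at 99206879 to 99212432 and Krt28 at 99226321 to 99236217. The type II members lie on the minus strand of chromosome 15, within 68384 bases and with 9 exons each. Krt71 is at 101564380 to 101573528, Krt74 at 101584690 to 101593935, Krt72 at 101606991 to 101616889 and Krt73 at 101623739 to 101632763. Tchh, with 2 exons, lies on the plus strand of chromosome 3 at 93246252 to 93252999, next to other genes of the fused S100 family. No exon of another annotated gene overlaps an exon of any member. RefSeq classes mouse Krt74 as a transcribed pseudogene and the other members as protein-coding.

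Because the members moved together across the libraries, as described next, the 250 bases before the transcript start were read for the 8 members with a RefSeq promoter entry (build GRCm38.p6). Each window had 1 exact match on mm9. The letters of the TATA box and of 4 kinds of factor known from hair and epidermis were searched on both strands. The windows of 2 type I and 2 type II members that held both the TATA box TATAAA and a GATA pattern (AGATAA or AGATAG, or their forms that start with T, TGATAA or TGATAG) are printed, with these letters in capitals, 5′ to 3′ on the gene's minus strand. On mm9 they are chr11:99184266-99184515 for Krt25, chr11:99212433-99212682 for Krt27, chr15:101573529-101573778 for Krt71 and chr15:101632792-101633041 for Krt73.
Krt25: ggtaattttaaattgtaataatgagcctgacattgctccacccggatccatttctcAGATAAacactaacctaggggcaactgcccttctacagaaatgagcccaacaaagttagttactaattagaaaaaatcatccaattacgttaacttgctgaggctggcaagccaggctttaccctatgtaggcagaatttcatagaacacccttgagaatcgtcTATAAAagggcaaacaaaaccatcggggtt
Krt27: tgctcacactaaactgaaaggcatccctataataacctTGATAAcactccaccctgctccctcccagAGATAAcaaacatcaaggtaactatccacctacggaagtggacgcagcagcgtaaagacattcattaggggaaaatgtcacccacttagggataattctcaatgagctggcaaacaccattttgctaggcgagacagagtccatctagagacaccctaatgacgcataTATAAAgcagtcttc
Krt71: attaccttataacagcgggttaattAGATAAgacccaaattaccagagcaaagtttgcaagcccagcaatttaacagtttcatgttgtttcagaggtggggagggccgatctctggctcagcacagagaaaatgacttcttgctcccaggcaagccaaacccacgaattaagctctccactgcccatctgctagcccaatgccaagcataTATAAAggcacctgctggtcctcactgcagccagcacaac
Krt73: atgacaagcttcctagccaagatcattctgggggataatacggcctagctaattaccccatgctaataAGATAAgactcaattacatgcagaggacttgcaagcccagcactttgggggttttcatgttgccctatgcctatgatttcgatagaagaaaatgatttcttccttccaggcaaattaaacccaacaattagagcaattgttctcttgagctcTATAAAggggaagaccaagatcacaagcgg
On the gene's own strand and within the last 50 bases, TATAAA stood in 6 of 8 member windows (Krt25, Krt26, Krt27, Krt28, Krt71 and Krt73), against 2.88% of 27025 promoter windows. It began 30 bases before the start in Krt25, Krt26, Krt28 and Krt73, 40 bases before it in Krt71 and 15 in Krt27. A GATA pattern, the letters bound by Gata3 and its relatives, stood in 5 of 8 windows (27.1% of all windows), those of Krt25, Krt27, Krt71, Krt73 and Tchh. The homeobox letters TAATTG or TAATTA stood in 5 of 8 (11.5% of all), in Krt25, Krt26, Krt28, Krt71 and Krt73. LEF/TCF letters (CTTTGAA or CTTTGAT) were found in 1 of 8, that of Tchh (7.67% of all), and the AP-1 letters TGANTCA in 0 of 8 (6.87% of all). In Krt71 the TAATTA and the AGATAA share 1 base, and in Tchh a LEF/TCF match and an AGATAA share 2. For Tchh the annotated transcript has no bases before its coding sequence, so its window ends at the start codon. This window, counted among the 8, may therefore not be the promoter, which was not tested. Krt71 and Krt73 share the run TTGCAAGCCCAGCA of 14 bases, 196 and 154 bases before their starts, which 2 of the 27025 windows hold, these 2 genes' own. It was the longest run shared by any 2 member windows. A match of letters is a description and not evidence of binding.

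In these skin samples KO replicate 1 held nearly all of the inner root sheath message, and the other 3 libraries held little. Together the 9 members reached 320.8 FPKM in KO replicate 1, against 8.45 and 0.669 FPKM in WT replicates 1 and 2 and 6.61 FPKM in KO replicate 2. Each of the 9 members was highest in KO replicate 1, as were 21.8% of the 19663 rows above 0 in a library. In 8 of the 9, all but Krt74, the gap to the next library was over 2 log2 units, as in 0.366% of these rows and in 0.522% of those with 1 FPKM in a library. Bulk RNA cannot tell apart fewer cells of a type and less RNA per cell.

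**Figure D1:**
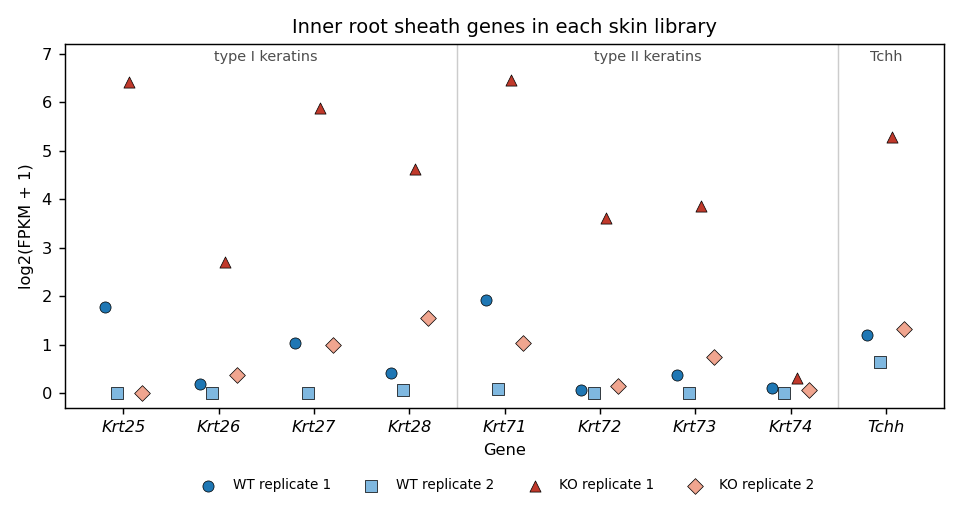
Level of each member in each library, as log2(FPKM + 1) on the vertical axis, with 1 point per library and the genes grouped as type I keratins, type II keratins and Tchh. The triangles of KO replicate 1 lie above all other points for every gene, by over 2 units for all but Krt74, while the remaining libraries lie under 2 units.

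Among the type I keratins, Krt25, found in all layers of the sheath, stood at 2.43 and 0 FPKM in WT skin against 84.1 and 0 FPKM in KO skin. KO replicate 1 was far above the rest, but KO replicate 2 was listed at 0 like WT replicate 2, so the groups overlapped. Krt27, also in all layers, stood at 1.04 and 0 FPKM in WT skin against 57.8 and 0.984 FPKM in KO skin. Here WT replicate 1 and KO replicate 2 were about level. Krt28 stood at 0.339 and 0.0511 FPKM in WT skin against 23.5 and 1.91 FPKM in KO skin, and both KO libraries lay above both WT libraries. Krt26, a keratin of the sheath cuticle, stood at 0.133 and 0 FPKM in WT skin against 5.55 and 0.305 FPKM in KO skin, with the same order. Behind the low values stood an estimated 36.4 fragments for Krt28 and 9.61 for Krt26 in KO replicate 2, and 8.79 and 5.72 in WT replicate 1.

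Among the type II keratins, Krt71, the main type II keratin of the whole sheath and the gene mutated in the wavy-coated caracul mice, stood at 2.77 and 0.0661 FPKM in WT skin against 86.4 and 1.04 FPKM in KO skin. It was the highest member in KO replicate 1, and KO replicate 2 lay below WT replicate 1. Krt73, a keratin of the sheath cuticle, stood at 0.302 and 0 FPKM in WT skin against 13.6 and 0.678 FPKM in KO skin. Krt72, of the cuticle as well, stood at 0.0400 and 0 FPKM in WT skin against 11.3 and 0.109 FPKM in KO skin, where the values of WT replicate 1 and KO replicate 2 rest on an estimated 1.09 and 2.18 fragments. In both of these genes the KO libraries lay above the WT libraries, but for Krt72 every library except KO replicate 1 was under the level of 3 fragments. Krt74 stood at 0.0784 and 0 FPKM in WT skin against 0.249 and 0.0537 FPKM in KO skin. At no more than 5.63 estimated fragments in any library, a difference in Krt74 was not detectable at this depth.

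Tchh stood at 1.31 and 0.552 FPKM in WT skin against 38.2 and 1.52 FPKM in KO skin. It was the only member above 0.1 FPKM in WT replicate 2, where its 5823-base transcript collected an estimated 45.6 fragments, while the 8 keratins together summed to 0.117 FPKM. Of the 9 members, 6 were listed at 0 in WT replicate 2, and 0 reached 1 FPKM there. In WT replicate 1 and KO replicate 2, 4 and 3 members reached 1 FPKM, and in KO replicate 1 all but Krt74 did. Across the 9 members, both KO libraries lay above both WT libraries in 5 (Krt26, Krt28, Krt72, Krt73 and Tchh), against 28.8% of rows above 0. In 0 of 9 did both KO libraries lie below both WT libraries, as in 19.2% of those rows. In 8 of the 9, KO replicate 1 was highest and WT replicate 2 lowest without a tie, a pattern of 7.48% of those rows.

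The comparison of genotypes asked whether loss of GSDMD changed these genes in BLM-treated skin. All 9 members had a higher mean log2(FPKM + 1) in KO than in WT libraries, as did 54.6% of rows above 0. Their median log2 fold change, tested or not, was 2.32. The median was 0.11 over the 13027 genes tested and 0.02 over all 19663 rows above 0. None of the 9 was called. A call needed a limma adjusted p (Benjamini-Hochberg) below 0.05 together with a difference of more than 1 log2 unit either way, which 0 of the 13027 genes (0%) met. Only 5 members (Krt25, Krt27, Krt28, Krt71 and Tchh) reached 1 FPKM in 2 libraries and entered this test, and each did so through KO replicate 1 and 1 or 2 other libraries. Of these, 1 had an unadjusted p under 0.05, as did 17.1% of all genes tested. That was Krt28, which differed by 2.83 log2 units (SE 0.99, 95% interval 0.29 to 5.37, limma adjusted p = 0.271). Krt28 passed the filter through the 2 KO libraries alone, so its unadjusted p and interval are no support for a difference, and without the filter its interval was -0.19 to 5.85. Krt27 had the largest log2 fold change of the members on this scale, 2.92 (SE 1.58, limma adjusted p = 0.379). With 0.1 or 0.5 added to FPKM instead of 1, that of Krt28 was the largest (4.74 and 3.48, against 4.55 and 3.41 for Krt27). For Krt71, with 2.74 (SE 1.80, limma adjusted p = 0.444), the 95% interval ran from -1.87 to 7.34. The values of Krt25 and Tchh were 2.32 (SE 2.09, limma adjusted p = 0.559) and 2.39 (SE 1.27, limma adjusted p = 0.373). With no filter on low values, all 9 were tested, 0 were called and 0 had an unadjusted p under 0.05, which 12.6% of all rows tested had. There the 95% interval was -0.79 to 3.71 for Krt26, -1.48 to 5.20 for Krt72, -0.93 to 5.16 for Krt73 and -0.14 to 0.42 for Krt74.

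**Figure D2:**
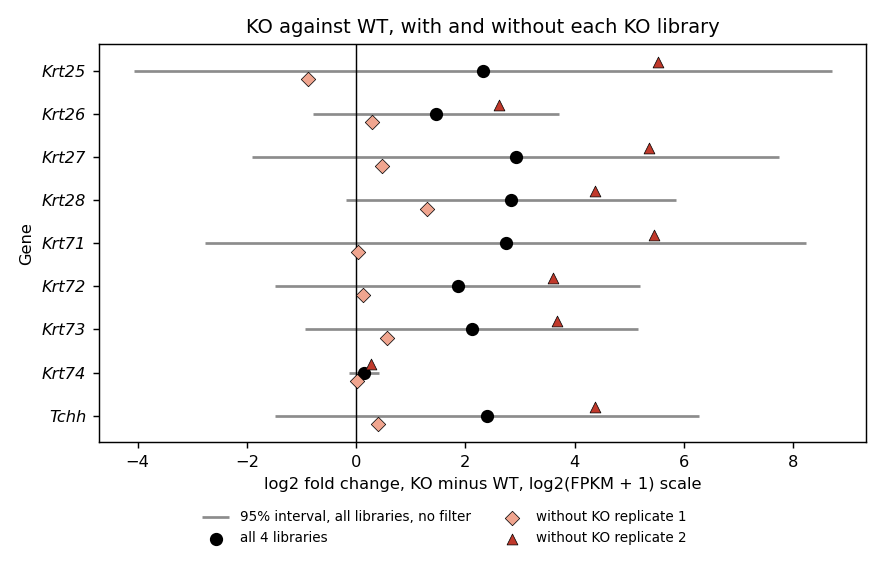
Log2 fold change of each member, KO minus WT on the log2(FPKM + 1) scale, with all 4 libraries (black points, lines for 95% intervals from the limma fit without a filter) and after leaving out either KO library. All intervals include 0, the points without KO replicate 1 lie between -0.89 (Krt25) and 1.30 (Krt28), and those without KO replicate 2 lie to the right of the black points.

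The size of these differences rested on KO replicate 1. Without it, 8 of the 9 differences were still above 0, but the median log2 fold change of the 9 members fell to 0.29, that of Krt71 was 0.03, that of Krt27 was 0.47 and that of Krt25 turned to -0.89. The Krt25 value rests on the 0 listed for it in KO replicate 2, described further on. Without that library the largest difference was that of Krt28, 1.30. Without KO replicate 2, the median was 4.37, and 4 of the 4 members then tested were called (Krt25, Krt27, Krt71 and Tchh), against 0.244% of the 12702 genes tested and 0.126% called higher. Their log2 fold changes were then 4.37 to 5.52, with limma adjusted p from 0.00667 to 0.0229. That fit holds 1 KO library, which is assumed to vary as the WT libraries do, so it sets KO replicate 1 against the WT libraries and does not test the genotype. The summed level was 163.7 ± 222.1 FPKM in KO and 4.56 ± 5.502 FPKM in WT libraries (SD, n = 2 each), and an exact two-sided permutation test gave p = 0.667, where 0.333 is the smallest p that 2 against 2 libraries can give.

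The members also differed in how they shared the summed level. In KO replicate 1 the order was Krt71 (26.9% of the members' sum), Krt25 (26.2%), Krt27 (18.0%), Tchh (11.9%), Krt28 (7.33%), Krt73 (4.24%), Krt72 (3.53%), Krt26 (1.73%) and Krt74 (0.0776%). In WT replicate 1 the order was close to this, led by Krt71 (32.8%) and Krt25 (28.8%), with Spearman's rho of 0.933 over the 9 genes. In KO replicate 2 Krt28 led with 29.0%, followed by Tchh with 22.9% and Krt71 with 15.8%, and rho against KO replicate 1 was 0.333. This order takes Krt25 at its listed 0. At the levels worked out in the paragraph on ratios, Krt25 would make up 25.9% or 17.8% and Krt28 21.5% or 23.8%, so which gene leads depends on that value. These correlations are across genes within libraries, and several of the values in KO replicate 2 rest on few fragments. In WT replicate 2 Tchh made up 82.5%. Of the 8 pairs of neighbours in the order of KO means, 4 had the same order in both KO libraries (Krt71 over Krt25, Krt28 over Krt73, Krt73 over Krt72 and Krt26 over Krt74) and 4 did not. The order of Krt71 over Krt25 in KO replicate 2 rests on the same listed 0. Neighbouring levels were not tested against each other.

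**Figure D3:**
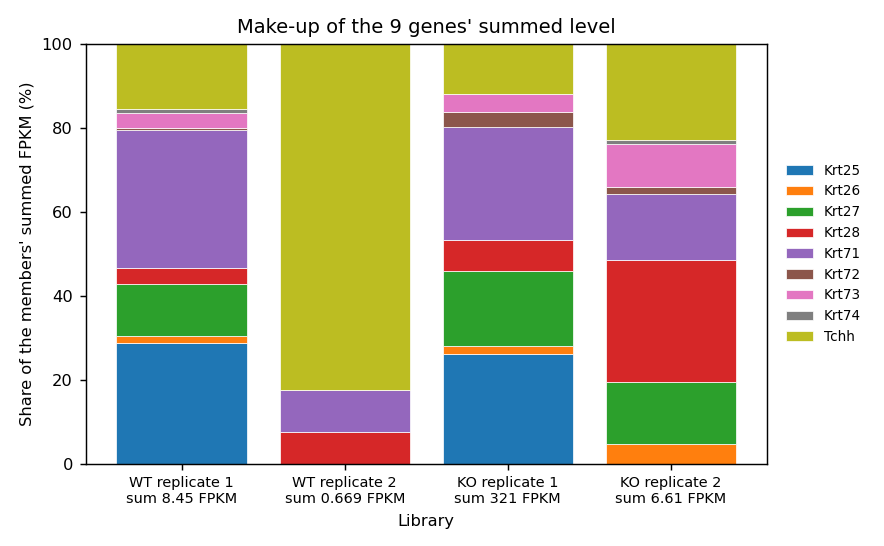
Share of each member in the members' summed FPKM, as stacked bars in percent, for each library, with the sum under each bar. Krt25 and Krt71 make up over 50% in WT replicate 1 and KO replicate 1, Krt28 leads in KO replicate 2 (Krt25 listed at 0), and Tchh takes 82.5% in WT replicate 2.

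Type I over type II keratins, which pair in filaments, gave a ratio of summed FPKM of 1.24 in WT replicate 1, 1.53 in KO replicate 1 and 1.70 in KO replicate 2. In WT replicate 2 the ratio of 0.772 rests on an estimated 1.08 fragments of Krt28 and 2.04 of Krt71. The Krt25 value of KO replicate 2 is considered here against Krt27. Krt25 was 2.34 times Krt27 in WT replicate 1 and 1.45 times Krt27 in KO replicate 1. At these ratios, KO replicate 2 would hold 2.31 or 1.43 FPKM of Krt25, an estimated 48.6 or 30.2 fragments, but it was listed at 0, where 3 fragments would be 0.142 FPKM. With these levels in place of 0, the Krt25 difference without KO replicate 1 would be 0.84 or 0.39 log2 units, and the ratio of type I to type II keratins in KO replicate 2 would be 2.92 or 2.46 rather than 1.70. The ratio may not hold in that library, where Krt27 over Krt28 was 0.514, against 3.06 in WT replicate 1 and 2.46 in KO replicate 1. Whether the listed 0 is a failed estimate was not tested. Over all rows, 2050 genes reached 50 FPKM in some library, and 4 of these were listed at 0 in a different library. They were Krt25, Krt27, Krtap8-1 and Snora81, the last named after its values were seen. Each reached 50 FPKM in KO replicate 1 only, and Krt27 and Krtap8-1 were at 0 only in WT replicate 2. Krt25 and Krt27 also share sequence: 10.9% and 11.1% of their 50-base windows occur in another protein-coding transcript (of Krt15, Krt27 and Krt28 for Krt25, of Krt25 and Krt28 for Krt27), against at most 2.50% for the remaining members and 0% for Krt26 and Tchh. For 100-base windows the shares were 0.582% and 0.758%, each gene with the other. How fragments from shared windows were assigned is not known, and their part in the Krt25 and Krt27 values was not tested.

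The enzymes that act on trichohyalin were compared next. Of 7 transglutaminases and peptidylarginine deiminases, 6 were tested and 0 passed, and at an unadjusted p under 0.05 with an absolute log2 fold change above 1, 1 (Tgm5) was higher and 1 (Padi2) lower in KO. Over all genes tested these shares were 6.16% and 4.14%, or 802 and 539 genes, and median-ratio scaling of the libraries turned this split to 631 and 708 genes and the median of all genes from 0.11 to 0.01 log2 units. Padi3, which citrullinates trichohyalin and hair proteins, stood at 0.166 and 0.113 FPKM in WT skin against 5.0 and 0.483 FPKM in KO skin, an order like that of Tchh. Tgm3, a transglutaminase of hair follicle and epidermis, stood at 3.06 and 1.25 FPKM in WT skin against 3.82 and 1.18 FPKM in KO skin, with overlapping groups. Tgm1 had 20.6 and 13.7 against 36.8 and 11.2 FPKM. Padi2 stood at 21.7 and 18.4 FPKM in WT skin against 6.997 and 9.40 FPKM in KO skin, and Tgm5 4.07 and 2.63 against 6.82 and 21.4 FPKM. Only Padi3 of these 5 was over 2 log2 units higher in KO replicate 1 than in any other library.

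Tchh belongs to the fused-type S100 genes, which encode large granule proteins of hair and epidermis. Of 5 relatives in the table, 3 were tested and 0 passed, also at an unadjusted p under 0.05 (17.1% of all genes tested). All 5 were highest in KO replicate 1 (21.8% of rows above 0). Tchhl1, the neighbour of Tchh, stood at 0.518 and 0.0700 FPKM in WT skin against 5.61 and 0.948 FPKM in KO skin. Rptn, which encodes repetin of the cornified envelope, had 33.4 and 4.34 against 77.5 and 15.1 FPKM. Flg2 had 14.5 and 2.52 against 26.1 and 16.9 FPKM, and Hrnr 8.47 and 2.26 against 19.3 and 7.97 FPKM. WT replicate 2 was the lowest library for these 4 genes.

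Regulators of sheath and hair differentiation were split in their order: 5 of 10 were highest in KO replicate 1 (21.8% of rows above 0), like the members, and the 4 most abundant were not. Of the 10 genes, 9 were tested and 0 passed, and 4 were higher in KO at an unadjusted p under 0.05 with a log2 fold change above 1 (6.16% of all genes tested). Gata3, a transcription factor needed to form the inner root sheath, stood at 11.05 and 8.53 FPKM in WT skin against 27.1 and 39.5 FPKM in KO skin, a difference of 1.66 log2 units (SE 0.30, limma adjusted p = 0.248). It was thus highest in KO replicate 2, where the members were low. Vdr, the vitamin D receptor, had 6.98 and 4.60 against 23.4 and 43.8 FPKM, and Sox21, a factor of the hair cuticle, 2.93 and 1.69 against 8.06 and 14.9 FPKM. Cux1, expressed in the sheath during its formation, had 21.3 and 16.8 against 17.4 and 11.3 FPKM. The 5 that were highest in KO replicate 1 were Dlx3, Hoxc13, Msx2, Foxn1 and Lef1, named after their values were seen. Among these, Hoxc13, a homeobox factor of the hair shaft, had 1.08 and 0.350 against 6.37 and 3.06 FPKM, the order of Tchh and Krt28, and Dlx3, a homeobox factor of the follicle, had 3.77 and 1.54 against 15.5 and 2.22 FPKM, the order of Krt27 and Krt71. In 8 of the 10 regulators both KO libraries lay above both WT libraries (28.8% of rows above 0), and 0 of the 10 had a gap of over 2 log2 units between KO replicate 1 and the next library. These regulators are also expressed outside the sheath.

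Genes of the layers outside the sheath were higher in both KO libraries than in both WT libraries in 9 of 12 cases (28.8% of rows above 0). Of these 12 genes of the companion layer and outer root sheath, 12 were tested, 0 passed and 9 were higher in KO at the unadjusted threshold with a log2 fold change above 1 (6.16% of all genes tested). The 9 include Lgr5, named after its values were seen, which reached 1 FPKM in the KO libraries alone and so is no support for a difference. Krt75, the keratin of the companion layer that borders the inner root sheath, stood at 3.59 and 2.10 FPKM in WT skin against 14.2 and 23.4 FPKM in KO skin, a difference of 2.35 log2 units (SE 0.36, limma adjusted p = 0.248). Krt14 and Krt5, the paired keratins of the outer root sheath and basal epidermis, had log2 fold changes of 1.11 and 1.15, with 1293 and 1215 against 2689 and 2735 FPKM for Krt14. Krt17, of the outer root sheath and of stressed epidermis, stood at 360.3 and 201.4 FPKM in WT skin against 953.2 and 529.8 FPKM in KO skin. Krt79, of the upper follicle, had 155.9 and 101.1 against 426.6 and 918.6 FPKM. In each of these 5 genes both KO libraries lay above both WT libraries.

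Genes of the hair shaft and of pigment were high in the same library as the members. All 16 hair shaft keratins were highest in KO replicate 1, and 10 of them by over 2 log2 units (21.8% and 0.366% of rows above 0). Of the 16, 3 were tested and 0 passed. These 3 (Krt32, Krt35 and Krt85) reached 1 FPKM in the KO libraries alone, so the filter itself favoured a higher value in KO, and that they were higher at the unadjusted threshold (6.16% of all genes tested) is no support for a difference. Krt85 and Krt35, which pair early in the shaft, showed the same order. Krt85 stood at 0.177 and 0.0530 FPKM in WT skin against 16.7 and 1.99 FPKM in KO skin, and Krt35 at 0.0712 and 0 against 15.7 and 2.20 FPKM. Of 54 keratin-associated proteins, which cross-link the shaft keratins, 49 were highest in KO replicate 1 and 25 by over 2 log2 units. Among them Krtap8-1 stood at 0.503 and 0 FPKM in WT skin against 64.5 and 3.33 FPKM in KO skin. Of 7 pigment genes 6 were highest in KO replicate 1, among them Dct, an enzyme of melanin synthesis, with 3.40 and 1.99 against 28.4 and 3.10 FPKM. The members' sum over that of the shaft keratins was 3.93 in WT replicate 1 and 3.15 in KO replicate 1, against 0.405 and 0.660 in WT replicate 2 and KO replicate 2. In WT replicate 2 the sums were only 0.669 and 1.65 FPKM, and in KO replicate 2 Krt25 counts at its listed 0.

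**Figure D4:**
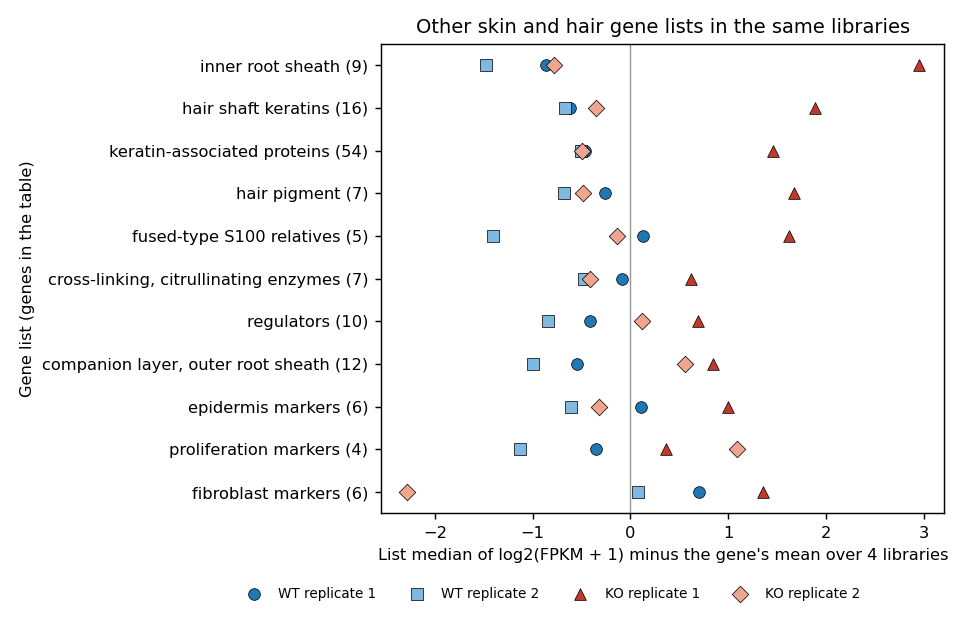
Median over each gene list of log2(FPKM + 1) minus the gene's own mean over the 4 libraries, with 1 point per library and the number of genes in parentheses. KO replicate 1 lies at 2.95 for the inner root sheath genes, at 1.46 to 1.89 for the shaft, keratin-associated and pigment lists and at 0.37 for proliferation markers, where KO replicate 2 is highest at 1.09.

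Other tissue markers moved with the libraries as well. The 6 epidermis markers summed to 7812 FPKM in KO replicate 1, 4960 in KO replicate 2 and 3499 and 2734 in the WT libraries. In KO replicate 2 this sum rests on the basal keratins Krt14 and Krt5, while the suprabasal keratins Krt10 (266.3 FPKM) and Krt1 (279.9 FPKM) were lower there than in any other library. The members' sum was 0.0411 of this epidermal sum in KO replicate 1 and at most 0.00241 of it in the other libraries. The 4 proliferation markers, which include Mki67, summed to 12.7 and 5.59 FPKM in WT skin against 22.6 and 45.1 FPKM in KO skin, so KO replicate 2 and not KO replicate 1 was highest. Fibroblast markers were highest in KO replicate 1 for 6 of 6 genes, macrophage markers for 0 of 4 (21.8% of rows above 0). The 4 macrophage markers summed to 214.4 and 311.2 FPKM in WT skin against 71.6 and 14.9 FPKM in KO skin, and the 4 skeletal muscle markers to 16445 and 16639 against 10009 and 9653 FPKM. The 4 adipocyte markers summed to 1637 and 4331 FPKM in WT skin against 2021 and 190.6 FPKM in KO skin. Their sum was highest in WT replicate 2, where the members were lowest, and lowest in KO replicate 2. Of these markers, Lep was highest in KO replicate 1 (6.94 FPKM, against 4.74 FPKM in WT replicate 2). The part of any of these markers in the members' values was not tested.

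The genes most like the members were those whose log2(FPKM + 1) profile, centred on the gene's mean, lay closest to the members' mean profile over the 4 libraries, outside the lists above. The nearest was Gm10229, at 0.345 and 0 FPKM in WT skin against 14.4 and 0 FPKM in KO skin and at a Euclidean distance of 0.43. Prr9 was next, at a distance of 0.50, with 1.87 and 0.270 against 32.9 and 2.08 FPKM. The others, out to a distance of 1.29, were Gm10228, Gm11938, Pinlyp, S100a3, 1110025L11Rik, Vsig8, Gm11562 and Gm10272. S100a3, a calcium-binding protein of the hair cuticle that Padi3 citrullinates, reached 130.7 FPKM in KO replicate 1 and 2.00 to 5.18 FPKM in the other libraries. Of the 50 nearest genes that are not members, 20 carried a Krtap symbol and 10 were hair shaft keratins. Gm10272, with the RefSeq synonym Krtap12-4, is not in that count of 20. With 4 libraries, of which 1 carries the pattern, such likeness says little beyond a high value in KO replicate 1.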

How the data were processed

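RNA from the skin of 2 WT and 2 KO mice was sequenced as paired-end reads. The authors aligned them to mm9 with HISAT2 (version 2.0.1 in the submitters' processing notes, which also list StringTie version 2.0.6), and their text then describes read counts and DESeq2. The file the authors deposited is named as counts, but its values are FPKM, and 99.993% of those above 0 are not whole. No count model was therefore used. The program that made the FPKM is not given in the sources used here, and strand use is not stated.

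Values were taken as log2(FPKM + 1) without further scaling. The 13027 rows with at least 1 FPKM in 2 libraries entered a limma model (version 3.58.1, R 4.3.3) of genotype alone, with moderated variances that follow the mean level and Benjamini-Hochberg adjustment. Fragment numbers come from the spacing of low values in 2710 single-transcript genes of at least 2 kb: on a 1 kb transcript, 1 fragment amounts to 0.0575 to 0.0784 FPKM. These estimates are approximate and carry no interval. Starts in the table count from 0 and were raised by 1. Of 20310 symbols found in the GENCODE annotation of mm9, 99.2% overlapped the annotated gene. Krt72 is named Krt72-ps there and was matched through its RefSeq synonym. Promoters are RefSeq's, and Krt74 has no entry among them. Flg was not analysed here.

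The members, gene lists and tests were chosen with earlier results of these data known. Named genes are all members, up to 4 of each list by mean FPKM with Gata3, Tgm3, Padi3 and Krt75, and the 10 genes nearest in profile. WT and KO libraries share replicate numbers, but no source pairs them. Alternatives were other scalings, pseudocounts, filters, no trend, a replicate block and leaving out each library, and, added after the data were seen, a crossed block and other sums for the permutation test.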

Additional observations from a re-analysis of the deposited data

How the results depend on the processing

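Under the 4 settings that kept all 4 libraries and could move a difference (2 scalings and pseudocounts of 0.1 and 0.5) all 36 log2 fold changes of the 9 members stayed above 0. Their median ran from 2.27 to 3.71. All of these settings keep KO replicate 1, so the signs of these differences say little beyond its high values. The filters, the trend and the replicate block leave these differences as they are. With any of these 8 settings 0 genes and 0 members were called. With 1 library left out, 35 of 36 stayed above 0. Over these 4 fits the median ran from 0.29 to 4.37, that of Krt25 from -0.89 to 5.52, the genes called from 0 to 1920 and the members called from 0 to 4. The 1920 genes were called without KO replicate 1 and the 31 genes, with the 4 members, without KO replicate 2, where the lone KO library is assumed to vary like the others. The same-numbered libraries were not treated as pairs: their deviations from the group means correlated at -0.20 (13027 genes). With the replicate block 0 genes and 0 members were called, with a smallest limma adjusted p of 0.0541 over all genes and an unadjusted p under 0.05 for 5 of the 5 members tested (15.3% of all genes). With the crossed block, chosen after seeing the data, 0 genes were called and 1 of 5 members, as without a block, had such a p (23.4% of all genes). The exact permutation p of the summed level was 0.667 with either scaling. Leaving out Krt25, chosen after its values were seen, takes 2.43 FPKM from WT replicate 1 and 0 from KO replicate 2, and the p of 0.333 that this gives is no support for a difference. Depending on gene and library, 3 fragments of a member amount to 0.0296 to 0.158 FPKM, and lower values order the libraries only loosely.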

Other observations

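Rows that were over 2 log2 units higher in KO replicate 1 than in every other library numbered 72 of 19663. By symbol, 25 of these were keratin-associated proteins (Krtap names), 10 hair shaft keratins, 8 inner root sheath members, 4 pigment genes, 1 a fused-type S100 gene (Crnn) and 1 an enzyme (Padi3), and 23 were in none of the lists. The 23 include Gm10272, whose RefSeq synonym is Krtap12-4. Krt27, Krt25 and Krt71 held ranks 2, 3 and 4 of the 72 by the size of the gap, behind the small nucleolar RNA Snora81, which was listed at 0 in the other 3 libraries and at 77.03 FPKM in KO replicate 1. Snora81 and Crnn were named after their values were seen. Among the 23, also chosen after their values were seen, were genes not known for hair: the slow muscle genes Myh7 (0.858 and 0.287 FPKM in WT skin against 6.62 and 0.808 FPKM in KO skin) and Myl3 (1.07 and 1.35 against 9.82 and 1.45 FPKM), and the fibroblast gene Pi16 (11.2 and 3.41 against 50.5 and 0.503 FPKM).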
